A study of Homo sapiens with 8 samples.

Results

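The genes of antigen presentation described here are 31 members of the MHC class I and class II pathways, chosen by gene symbol among the 58202 identifiers listed for each of 8 human cancer cell lines. They comprise 17 genes of the class I pathway, 10 of the class II pathway and 4 transcriptional regulators. RNA was sequenced from 1 library per line, after 48 hours of culture in plates and with no drug named in the labels. The 3 lung lines were H522 (non-small cell lung cancer), H661 (large cell lung cancer) and H146 (small cell lung cancer). KLE (endometrial adenocarcinoma) and HEC59 (endometrial carcinoma) were the 2 endometrial lines. The remaining tissues had 1 line each, namely H716 from the cecum (colorectal adenocarcinoma), 1321N1 from glia (brain astrocytoma) and COV318 from the ovary (epithelial-serous carcinoma). All 8 lines are described as expressing ERBB4, a receptor tyrosine kinase, and the series was set up around the response of such lines to ibrutinib, a kinase inhibitor. The labels do not say which 4 lines respond, so response was not analysed here and lines were grouped by tissue. Each line is a culture of 1 tumour, so a tissue group holds different tumours and not repeat cultures.

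Class I molecules carry peptides from inside the cell to the surface, where CD8 T cells and natural killer cells read them. Proteasomes cut proteins into peptides, TAP pumps these into the endoplasmic reticulum, ERAP1 and ERAP2 trim them, and chaperones load them onto a heavy chain paired with beta-2 microglobulin. Interferon raises most of these genes, and NLRC5 is the transactivator of class I genes. Class II molecules show peptides from the endocytic route to CD4 T cells, are found mainly on professional antigen-presenting cells and depend on the transactivator CIITA.

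Levels are in FPKM, fragment counts divided by transcript length and library total, and differences are on the log2(FPKM + 1) scale, which understates the differences of low genes. With 1 library per line a level has no replicate error, and the order of lines has no test. The absolute read depth is unknown. Across the lines 12205 to 13300 genes reached an FPKM of 1, and H146 had both the most such genes and the smallest summed FPKM. Low values moved in read steps that divided the lines into a set of H522, H661, KLE and H716 and a set of 1321N1, HEC59, COV318 and H146, and differences within these sets are given beside the group differences of the genes named. Lineage markers matched the labels in part. The intestinal cadherin CDH17 reached 137 FPKM in H716, the neuroendocrine factor INSM1 81.3 in H146, and the Mullerian factor PAX8 45.7 in KLE, 185 in HEC59 and 72.6 in COV318. Other markers went against the labels: the intestinal gene VIL1 was at 8.74 in H146 and 1.07 in H716, CDX1 was at 0 in all lines, and the neuroendocrine genes CHGA and SYP were higher in H716 (15.4 and 6.67) than in H146 (7.59 and 5.997). The lung factor NKX2-1 was at 11.2 in H661 but at 0.0204 in H522 and 0.0167 in H146, the surfactant gene SFTPA1 was at 0 in all lines, and in 1321N1 GFAP was at 3.10 with OLIG1, AQP4 and S100B at 0. Of 8 immune cell markers 1 reached an FPKM of 1 in any line, which was LYZ at 11.1 in H716. CD163 was at 0 in every line and the pan-leukocyte gene PTPRC was at most 0.967, in H146. The summed level of the 8 immune markers was 0.148 to 1.97 in lung lines and 0.195 to 11.3 in the others, and the part of such cells in the levels was not tested.

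Of the 31 genes, 26 reached an FPKM of 1 in at least 1 line and 11 did so in all lines. Among class I genes 16 of 17 reached that level somewhere, with HLA-G as the exception. Among class II genes 7 of 10 did so, none of them in all lines, and only 2, HLA-DMA and HLA-DMB, reached an FPKM of 5. No line had more than 4 class II genes at an FPKM of 1 or more. Of the 16 class I genes that reached 1, H146 had the lowest level of 12, and COV318 had the highest of 7, KLE of 4 and H716 of 3. KLE, H716 and COV318 had all 16 at an FPKM of 1 or more, against 9 in H146.

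**Figure D1:**
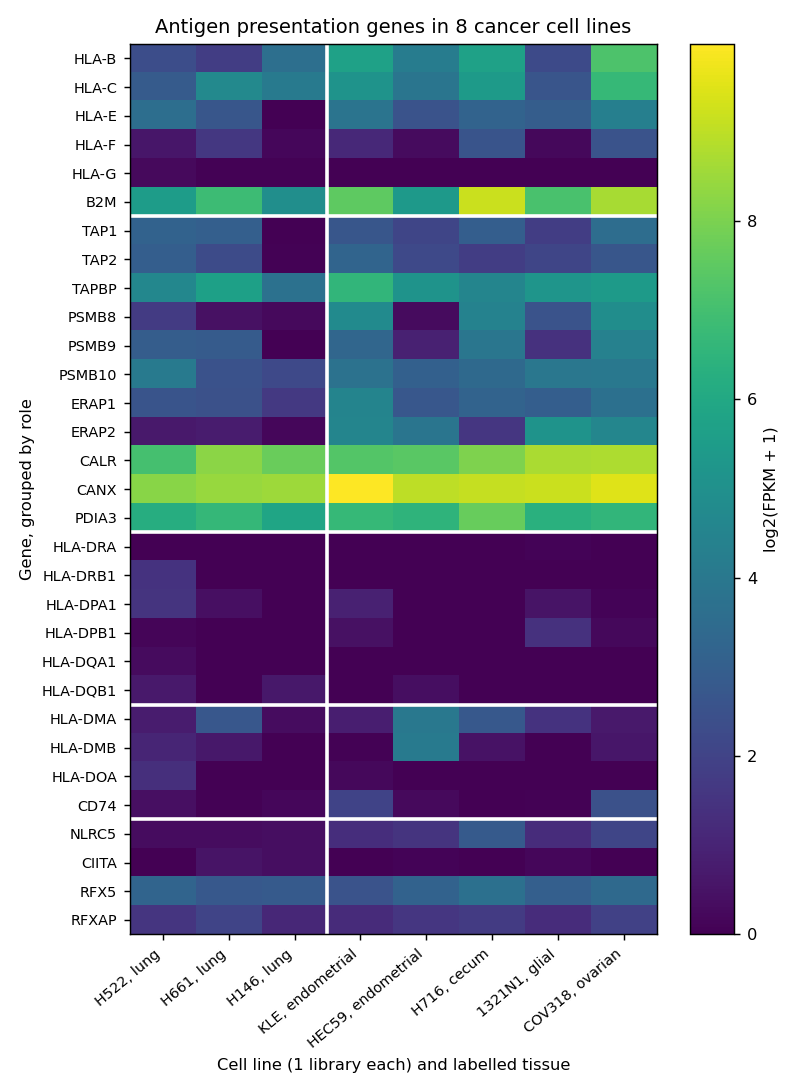
Level of each of the 31 genes (rows, grouped by role) in each of the 8 lines (columns, lung lines at the left) as log2(FPKM + 1), with brighter colours for higher levels. Class I rows are filled in most lines with dark cells in H146, and class II rows are dark apart from HLA-DMA, HLA-DMB and a few others.

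The classical heavy chains HLA-B and HLA-C bind the peptide and present it to T cells. Their promoter sequences are shown because both genes varied widely and lie near each other in the MHC on chromosome 6. The windows are the 250 bases before the RefSeq start of each gene on GRCh38.p14, chr6:31357180-31357429 for HLA-B and chr6:31272093-31272342 for HLA-C, both on the minus strand, read 5′ to 3′. Capitals mark matches on either strand to CCAAT (the NF-Y motif), TGACG (the core of the CREB and ATF motif), TTCNNNGAA (the STAT motif), GAAA, any 2 bases and GAAA (the interferon-stimulated response element), and GGGA, any 4 bases and CC (the NF-kB motif), which can overlap.
HLA-B: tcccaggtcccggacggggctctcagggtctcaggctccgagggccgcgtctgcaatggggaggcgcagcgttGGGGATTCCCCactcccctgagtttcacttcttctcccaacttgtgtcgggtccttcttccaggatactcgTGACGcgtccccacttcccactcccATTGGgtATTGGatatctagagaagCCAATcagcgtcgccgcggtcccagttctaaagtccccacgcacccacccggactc
HLA-C: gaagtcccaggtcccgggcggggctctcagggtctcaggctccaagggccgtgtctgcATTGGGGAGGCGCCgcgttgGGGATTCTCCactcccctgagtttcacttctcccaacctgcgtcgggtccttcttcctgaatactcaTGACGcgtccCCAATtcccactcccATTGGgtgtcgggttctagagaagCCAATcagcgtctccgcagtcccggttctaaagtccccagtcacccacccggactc
Aligned to each other, the windows were identical in 226 of 254 columns (89.0%), with 20 substitutions and 8 gapped columns. HLA-B held 3 CCAAT, 1 TGACG and 2 NF-kB matches, and HLA-C held 4, 1 and 2. No match to the interferon-stimulated response element as spelled here was in either window.

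HLA-B was at 4.18 FPKM in H522, 2.504 in H661 and 11.4 in H146, against 50.9 in KLE, 17.2 in HEC59, 51.3 in H716, 3.72 in 1321N1 and 147 in COV318. The 3 lung lines and 1321N1 were low and COV318 was high, a 58.7-fold span, and the lung values overlapped the others through 1321N1. In a bulk library fewer expressing cells and less RNA per cell cannot be told apart. HLA-C was at 6.36 FPKM in H522, 24.8 in H661 and 15.7 in H146, against 34.4 in KLE, 13.7 in HEC59, 42.9 in H716, 5.26 in 1321N1 and 102 in COV318. It followed the same broad order except in H661, which had the lowest HLA-B but more HLA-C than H522, H146, HEC59 and 1321N1. The ratio of HLA-B to HLA-C FPKM was 0.101 in H661 and lay between 0.657 and 1.48 in the other 7 lines. Reads of these near-identical and allele-rich genes can be split by the counting program, so the ratio is uncertain.

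HLA-E presents leader peptides of other class I chains to natural killer cells. It was at 11.0 FPKM in H522, 5.43 in H661 and 0 in H146, against 13.5 in KLE, 4.86 in HEC59, 8.15 in H716, 6.69 in 1321N1 and 18.7 in COV318. Apart from H146 it was the most even of the heavy chains. HLA-F, a nonclassical chain that can reach the surface without peptide, was at 0.507 FPKM in H522, 2.08 in H661 and 0.117 in H146, against 1.23 in KLE, 0.226 in HEC59, 5.03 in H716, 0.162 in 1321N1 and 4.90 in COV318. It was near 5 in H716 and COV318 and below 1 in 4 lines. Its antisense neighbour HLA-F-AS1 was listed at up to 2.11, in H146, and use of strand in the counting was not given in the sources used here. HLA-G, the chain of the placental trophoblast, was at most 0.178, in H522.

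B2M encodes beta-2 microglobulin, the light chain that all class I heavy chains need. Its window of 250 bases on GRCh38.p14, chr15:44711267-44711516 on the plus strand, is shown because it carries matches that the HLA-B and HLA-C windows lack.
B2M: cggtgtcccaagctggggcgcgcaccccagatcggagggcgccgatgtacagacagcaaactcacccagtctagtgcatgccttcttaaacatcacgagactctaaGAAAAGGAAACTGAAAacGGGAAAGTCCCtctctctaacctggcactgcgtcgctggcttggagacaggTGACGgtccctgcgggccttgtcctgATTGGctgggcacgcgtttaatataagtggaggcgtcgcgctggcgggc
It held 2 overlapping matches to the interferon-stimulated response element, 2 overlapping NF-kB matches, 1 TGACG and 1 CCAAT. B2M was at 44.8 FPKM in H522, 114 in H661 and 29.6 in H146, against 182 in KLE, 40.2 in HEC59, 578 in H716, 138 in 1321N1 and 406 in COV318. H716 and COV318 were highest and H146 lowest, a 19.5-fold span. Even in H146 its level stood above that of 86.7% of the genes tested. HEC59 lay with the lung lines for B2M although its HLA-B was above theirs.

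TAP1 and TAP2 form the peptide transporter, and TAPBP encodes tapasin, which bridges the transporter to the waiting heavy chain. TAP1 was at 7.81 FPKM in H522, 7.12 in H661 and 0 in H146, against 5.33 in KLE, 3.30 in HEC59, 6.95 in H716, 2.54 in 1321N1 and 10.8 in COV318. TAP2 was at 6.91 FPKM in H522, 3.89 in H661 and 0.0364 in H146, against 8.21 in KLE, 3.63 in HEC59, 2.55 in H716, 3.26 in 1321N1 and 5.32 in COV318. Both genes of the transporter were at or near 0 in H146 and between 2.54 and 10.8 in the other 7 lines, where their ratio was 0.650 to 2.73. TAPBP was at 23.9 FPKM in H522, 50.4 in H661 and 12.3 in H146, against 94.3 in KLE, 34.2 in HEC59, 22.2 in H716, 36.4 in 1321N1 and 42.3 in COV318. It was lowest in H146 as well, but far from 0 there.

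H146 listed TAP1, PSMB9 and HLA-E at exactly 0. An exact 0 in an FPKM table can be a failed estimate, and in H146 13 genes were at 0 while at 2 or more in each of the other 7 lines, HLA-E, TAP1 and the cathepsin gene CTSL among them. The other lines had 1 to 9 such genes each, none of them a gene of antigen presentation. None of 10 housekeeping genes was at 0 in H146. Whether the 0 values reflect the cells or the estimate was not tested. A second identifier of TAP2 reached at most 0.0225, in H661, a second identifier of HLA-DMB stayed below that, and all other repeat identifiers of the 31 symbols were at 0 in all lines, so the missing H146 values did not appear under another identifier.

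ERAP1 and ERAP2 trim the ends of peptides in the endoplasmic reticulum. ERAP2 was at 0.584 FPKM in H522, 0.700 in H661 and 0.123 in H146, against 22.0 in KLE, 13.7 in HEC59, 2.03 in H716, 33.6 in 1321N1 and 23.0 in COV318. All 3 lung lines were below 1 and every other line above 2, a 273-fold span from H146 to 1321N1 and a spread wider than that of 95.9% of the genes tested. ERAP1 was at 4.997 FPKM in H522, 4.52 in H661 and 2.14 in H146, against 21.7 in KLE, 5.62 in HEC59, 7.99 in H716, 6.92 in 1321N1 and 11.8 in COV318. The lung lines were again the lowest 3, by a smaller margin. Lines differed in which trimming enzyme was the more abundant per transcript length. In FPKM ERAP1 exceeded ERAP2 8.56-fold in H522, 6.46-fold in H661 and 17.4-fold in H146, against ratios of ERAP1 to ERAP2 of 0.984 in KLE, 0.412 in HEC59, 3.94 in H716, 0.206 in 1321N1 and 0.513 in COV318.

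The chaperones CALR (calreticulin) and CANX (calnexin) and the oxidoreductase PDIA3 fold glycoproteins in general as well as class I chains. CALR lay between 129 FPKM in H522 and 431 in COV318, and PDIA3 between 57.3 in H146 and 202 in H716. These were among the steadiest genes of the pathway, with spans of 3.33-fold and 3.53-fold. CANX was at 295 FPKM in H522, 345 in H661 and 367 in H146, against 1013 in KLE, 504 in HEC59, 553 in H716, 579 in 1321N1 and 729 in COV318. The lung values did not overlap the others, within a span of 3.43-fold.

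PSMB8, PSMB9 and PSMB10 are the interferon-inducible catalytic subunits that replace PSMB5, PSMB6 and PSMB7 to make the immunoproteasome. PSMB8 was at 2.29 FPKM in H522, 0.365 in H661 and 0.189 in H146, against 26.5 in KLE, 0.229 in HEC59, 20.6 in H716, 4.82 in 1321N1 and 28.8 in COV318. It split the lines into 3 above 20 (KLE, H716 and COV318), 3 below 0.4 (H661, H146 and HEC59) and 2 between. The antisense gene PSMB8-AS1 was listed at up to 1.57, in COV318. PSMB9 was at 6.71 FPKM in H522, 6.24 in H661 and 0 in H146, against 8.74 in KLE, 0.873 in HEC59, 14.1 in H716, 1.70 in 1321N1 and 19.9 in COV318. PSMB10, encoded on chromosome 16 outside the MHC, was at 16.0 FPKM in H522, 4.72 in H661 and 3.59 in H146, against 12.6 in KLE, 7.34 in HEC59, 9.59 in H716, 14.6 in 1321N1 and 14.9 in COV318. It varied 4.47-fold, much less than PSMB8, and H522 was its highest line.

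As a share of the summed FPKM of each inducible and constitutive pair, the inducible subunit was the minority in every line. PSMB8 made up 1.77% in H522, 0.240% in H661 and 0.231% in H146, against 18.2% in KLE, 0.288% in HEC59, 6.88% in H716, 2.35% in 1321N1 and 11.9% in COV318. PSMB9 made up 13.4% in H522, 5.67% in H661 and 0% in H146, against 11.4% in KLE, 1.82% in HEC59, 16.7% in H716, 1.498% in 1321N1 and 22.1% in COV318. The 3 subunits did not share 1 order of lines, since KLE led for PSMB8 and COV318 for PSMB9. PSMB10 made up between 1.9985% in H661 and 8.78% in COV318. H522 carried PSMB9 and PSMB10 at shares near those of KLE with a PSMB8 share below that of 1321N1.

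**Figure D2:**
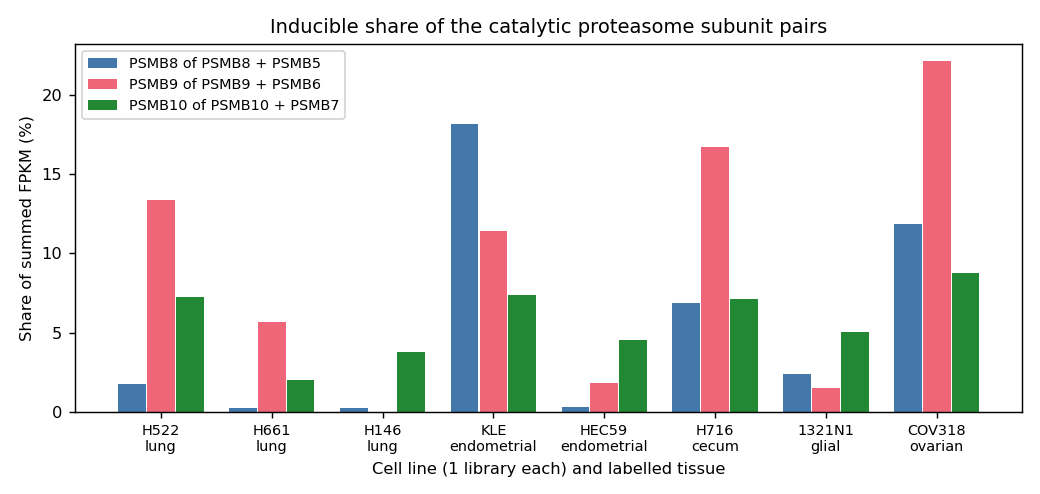
Share of each inducible catalytic subunit in the summed FPKM of the pair it forms with its constitutive counterpart (bars, percent) in each line, 1 library per line and no error bars. PSMB9 reached 22.1% in COV318 and PSMB8 18.2% in KLE, and H146 shows no PSMB9 bar because PSMB9 was at 0.

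TAP1 and PSMB9 lie head to head in the MHC with starts 488 bases apart, so their windows meet. They are shown because the genes share that interval. On GRCh38.p14 the window of TAP1 is chr6:32853705-32853954 on the minus strand and that of PSMB9 is chr6:32853942-32854191 on the plus strand, with capitals for the same motifs as above.
TAP1: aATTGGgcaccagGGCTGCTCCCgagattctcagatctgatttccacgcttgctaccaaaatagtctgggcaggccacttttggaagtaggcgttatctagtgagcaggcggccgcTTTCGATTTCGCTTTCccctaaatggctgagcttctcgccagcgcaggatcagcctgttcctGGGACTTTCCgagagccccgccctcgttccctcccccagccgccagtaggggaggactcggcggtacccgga
PSMB9: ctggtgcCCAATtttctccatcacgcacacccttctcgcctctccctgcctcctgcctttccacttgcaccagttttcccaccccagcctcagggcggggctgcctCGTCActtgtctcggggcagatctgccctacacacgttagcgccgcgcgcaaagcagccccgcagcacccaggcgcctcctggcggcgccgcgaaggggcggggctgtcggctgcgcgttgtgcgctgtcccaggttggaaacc
The TAP1 window held 2 overlapping matches to the interferon-stimulated response element and 2 NF-kB matches, and the PSMB9 window held 1 TGACG and no match to either. Their 1 CCAAT match each lies where the windows overlap and is the same site. Both genes were at 0 in H146 and highest in COV318. Over the 8 lines Pearson's r of TAP1 with PSMB9 on the log2(FPKM + 1) scale was 0.901 and Spearman's rho 0.786, and r was 0.868 with 1321N1 and H146 left out, whose TAP1 was farthest from its median. This is a description over lines of different tissues, each with its own library and depth. The ratio of PSMB9 to TAP1 FPKM still varied, at 0.858 in H522 and 0.876 in H661, against 1.64 in KLE, 0.265 in HEC59, 2.03 in H716, 0.671 in 1321N1 and 1.84 in COV318.

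Of the 31 genes, 26 had windows, 38 windows in all because some genes have several starts, and no window was found for HLA-E, HLA-DRA, NLRC5, CIITA and PDIA3. A match to the interferon-stimulated response element was in a window of 8 of the 26 genes, namely 7 of 15 class I genes, 0 of 9 class II genes and 1 transactivator gene. It was in 3.02% of all 35116 RefSeq windows of that length. CCAAT was found for 19 of the 26 genes (10 of 15 class I and 8 of 9 class II) and in 32.0% of all windows, TGACG for 13 and in 21.2%, the STAT motif for 3 and in 6.57%, and the NF-kB motif for 13 and in 22.6%. Genes with several windows had more chances of a match, and a match is a string of letters and not evidence of binding.

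NLRC5, the class I transactivator, was at 0.272 FPKM in H522, 0.263 in H661 and 0.278 in H146, against 1.47 in KLE, 1.84 in HEC59, 6.13 in H716, 1.38 in 1321N1 and 3.22 in COV318. The 3 lung lines were almost at 1 level and below every other line, and H716 and COV318 were highest, as they were for B2M and HLA-F. Because the lung lines stand apart from the rest for NLRC5, no pooled correlation is given, and with 3 and 5 lines neither cluster holds enough lines for a correlation of its own. Side by side, the lung lines had low NLRC5 with HLA-B of 2.504 to 11.4 FPKM, while 1321N1 and HEC59 had NLRC5 above 1 with HLA-B of 3.72 and 17.2. KLE, H716 and COV318 also had NLRC5 above 1, with HLA-B of 50.9, 51.3 and 147. H522 and H661 had less NLRC5 than KLE and more TAP1, while H146 had less of both. A link of NLRC5 to these levels was not tested.

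**Figure D3:**
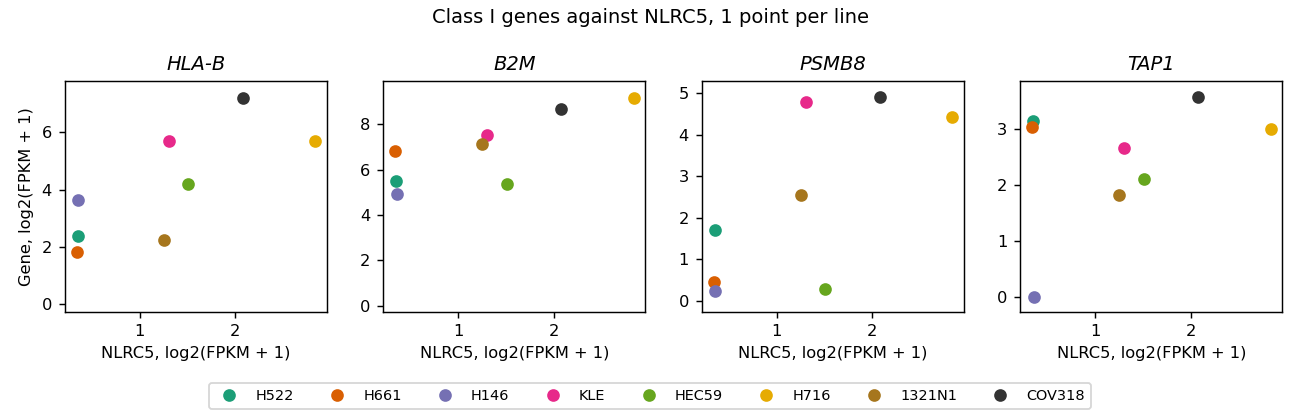
Levels of HLA-B, B2M, PSMB8 and TAP1 (y axes) against NLRC5 (x axis), both as log2(FPKM + 1), with 1 point per line. The 3 lung lines stack at the left at NLRC5 of 0.263 to 0.278 FPKM, and for TAP1 they spread between 0 in H146 and 7.81 FPKM in H522.

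IRF1, an interferon-induced transcription factor that drives class I genes, lay between 0.582 FPKM in H716 and 5.42 in KLE. Over the 8 lines its Pearson's r was positive with 12 of the 13 class I genes compared, with a median of 0.436, and the median was 0.569 without KLE and H716, its extreme lines. This is a description over lines of different tissues, with no test. H716 had the least IRF1 of the 8 lines with the most NLRC5 and B2M.

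The class II heterodimers HLA-DR, HLA-DP and HLA-DQ were at trace levels. HLA-DRA, the invariant partner of all DR beta chains, was at most 0.0753 FPKM, in 1321N1. HLA-DRB1 was at 1.73 in H522 and 0 in the other 7 lines. HLA-DPA1 was at 1.84 FPKM in H522, 0.319 in H661 and 0 in H146, against 0.881 in KLE, 0.458 in 1321N1, 0.0712 in COV318 and 0 in HEC59 and H716. HLA-DPB1 was highest at 1.65 in 1321N1 and was 0.367 or less elsewhere, HLA-DQA1 reached 0.222 in H522, and HLA-DQB1 reached 0.594 in H522. No line had both chains of a DR, DP or DQ pair at an FPKM of 1 or more. CD74, the invariant chain that escorts class II dimers, was at 0.345 FPKM in H522, 0.0398 in H661 and 0.133 in H146, against 3.02 in KLE, 0.197 in HEC59, 0 in H716, 0.0345 in 1321N1 and 4.58 in COV318.

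HLA-DM exchanges peptides on class II dimers in the endosome, and its alpha and beta chains are encoded by HLA-DMA and HLA-DMB. Their windows on GRCh38.p14 are shown because the HLA-DM genes were the class II genes with levels above 5 FPKM. They are chr6:32953098-32953347 for HLA-DMA and chr6:32941029-32941278 for HLA-DMB, both on the minus strand.
HLA-DMA: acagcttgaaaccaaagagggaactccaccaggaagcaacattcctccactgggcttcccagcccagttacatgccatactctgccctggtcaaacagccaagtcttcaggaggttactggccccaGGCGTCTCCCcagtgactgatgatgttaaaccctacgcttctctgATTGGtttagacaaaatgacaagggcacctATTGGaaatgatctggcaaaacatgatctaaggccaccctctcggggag
HLA-DMB: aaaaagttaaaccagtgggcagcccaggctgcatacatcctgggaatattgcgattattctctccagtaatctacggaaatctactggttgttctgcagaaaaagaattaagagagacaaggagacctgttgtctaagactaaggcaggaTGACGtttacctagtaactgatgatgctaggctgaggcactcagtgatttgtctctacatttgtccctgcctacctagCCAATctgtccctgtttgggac
HLA-DMA held 2 CCAAT matches and 1 NF-kB match, and HLA-DMB held 1 CCAAT and 1 TGACG. HLA-DMA was at 0.692 FPKM in H522, 5.48 in H661 and 0.261 in H146, against 0.772 in KLE, 15.2 in HEC59, 5.70 in H716, 1.76 in 1321N1 and 0.591 in COV318. HLA-DMB was at 1.05 FPKM in H522, 0.548 in H661 and 0 in H146, against 0.0415 in KLE, 16.4 in HEC59, 0.399 in H716, 0 in 1321N1 and 0.524 in COV318. HEC59 was the line with both chains above 5, at a ratio of 0.925, while H661 and H716 had HLA-DMA with HLA-DMB below 1. HLA-DOA, the alpha chain of the HLA-DO inhibitor of HLA-DM, was at 1.56 in H522, 0.163 in KLE and 0 elsewhere. With HLA-DRB1, HLA-DPA1, HLA-DMB and HLA-DOA, H522 had 4 class II genes at an FPKM of 1 or more, the most of any line, and H146 had 0.

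CIITA, the class II transactivator, was at most 0.446 FPKM, in H661, followed by 0.299 in H146, and at 0.0599 in HEC59, the line with the most HLA-DM. RFX5 and RFXAP, subunits of the factor that binds the X box of class II promoters, were present in all lines, at 4.87 to 11.9 and 1.14 to 3.16 FPKM. Their spread over the lines exceeded that of 8.62% and 5.96% of the genes tested, the smallest values among the 22 genes that passed the filter on low levels. RFXANK and the NF-Y subunits of the same complex were also present in all lines. Of 10 class II genes 2 had a positive Pearson's r with CIITA over the 8 lines and the median r was -0.22, at levels so low that no relation is read from it.

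The lung comparison asked whether the class I and class II genes differ between the 3 lung lines and the other 5 lines. Of the 31 genes, 22 reached an FPKM of 1 in 2 or more lines and were tested: 16 class I, 3 class II (HLA-DMA, HLA-DMB and CD74) and 3 regulators (NLRC5, RFX5 and RFXAP). All 16 class I genes had a lower mean in lung lines, and NLRC5 did too, but no gene of the 22 passed the threshold. By limma with Benjamini-Hochberg adjustment over 15650 genes, 0 of the 22 were called at an adjusted p of 0.05, where 0.0256% of all genes were (4 genes), and the smallest adjusted p was 0.287. At an unadjusted p under 0.05 stood 6 of the 22, and 5.94% of all genes. The mean was lower in lung lines for 21 of the 22, and for 51.6% of all genes. Lung values lay below all others for 4 of the 22 (ERAP2, ERAP1, CANX and NLRC5), and for 2.23% of all genes, and above all others for 0 of the 22 and 2.07% of all genes. The median log2 difference was -0.72 over the 22 and -0.87 over the class I genes, against -0.02 over all genes. ERAP2, NLRC5 and CD74 passed the filter on low values through the other lines alone, with all 3 lung lines below an FPKM of 1. The filter thus favoured a lower lung mean for them, and their part in these counts is a description. Genes of a pathway are not independent, and H146 contributed the lowest value of many of them.

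ERAP2 had the largest difference. Lung lines had a mean log2(FPKM + 1) of 0.53 ± 0.32 (SD, n = 3) and the other lines one of 3.94 ± 1.38 (SD, n = 5), a log2 difference of -3.41 (SE 0.735, 95% interval -5.06 to -1.76) with a limma adjusted p of 0.287. Inside the 2 read-step sets it was -2.35 and -4.36. Without H716, whose ERAP2 is the lowest outside lung, the difference was -3.99 and the limma adjusted p 0.0213. This was the single case in which a gene of the 22 was called, and it left out the line nearest the lung values. Over all alternatives the adjusted p ranged from 0.0213 to 0.608. ERAP2 passed the filter on low values through the other lines alone, so its difference and p-values are a description.

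For NLRC5 the mean log2(FPKM + 1) of lung lines was 0.35 ± 0.0085 (SD, n = 3) and that of the other lines 1.79 ± 0.67 (SD, n = 5), a difference of -1.45 (SE 0.440, limma adjusted p 0.613), with -1.73 and -1.26 within the sets. NLRC5, too, passed the filter on low values through the other lines alone, so its values here are a description. CANX differed by -0.96 (SE 0.326, limma adjusted p 0.724) and within the sets by -1.23 and -0.70. The difference of ERAP1 was -1.18 (SE 0.484, limma adjusted p 0.818), with -1.31 and -1.48 within the sets. PSMB8 and HLA-B had large differences with overlap between the groups. PSMB8 differed by -2.58 (SE 1.03, limma adjusted p 0.812) and by -3.52 and -2.33 within the sets. For HLA-B the difference was -2.40 (SE 0.984, limma adjusted p 0.818), -3.61 in the set with H522 and H661 and -0.91 in the set with H146. B2M differed by -1.80 (SE 0.816, limma adjusted p 0.821), with -2.16 and -2.12 within the sets. All of these had the same sign within both sets, but the second set holds H146 as its only lung line.

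For the transporter genes and PSMB9 the lower mean rested on H146. The log2 difference of TAP1 was -0.57 with H146 and 0.45 without it. TAP2 gave -0.62 and 0.24 without H146, and PSMB9 gave -0.85 and 0.12 without H146. For HLA-E the difference of -1.28 became -0.23. In the set with H522 and H661 the differences were 0.25 for TAP1, 0.12 for TAP2, -0.70 for PSMB9 and -0.39 for HLA-E, and in the set with H146 they were -2.497, -2.27, -2.24 and -3.27. H522 and H661 had TAP1 and TAP2 at levels within the range of the lines outside lung. ERAP2, NLRC5, CANX and ERAP1 were below all lines outside lung in H522 and H661 as well.

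**Figure D4:**
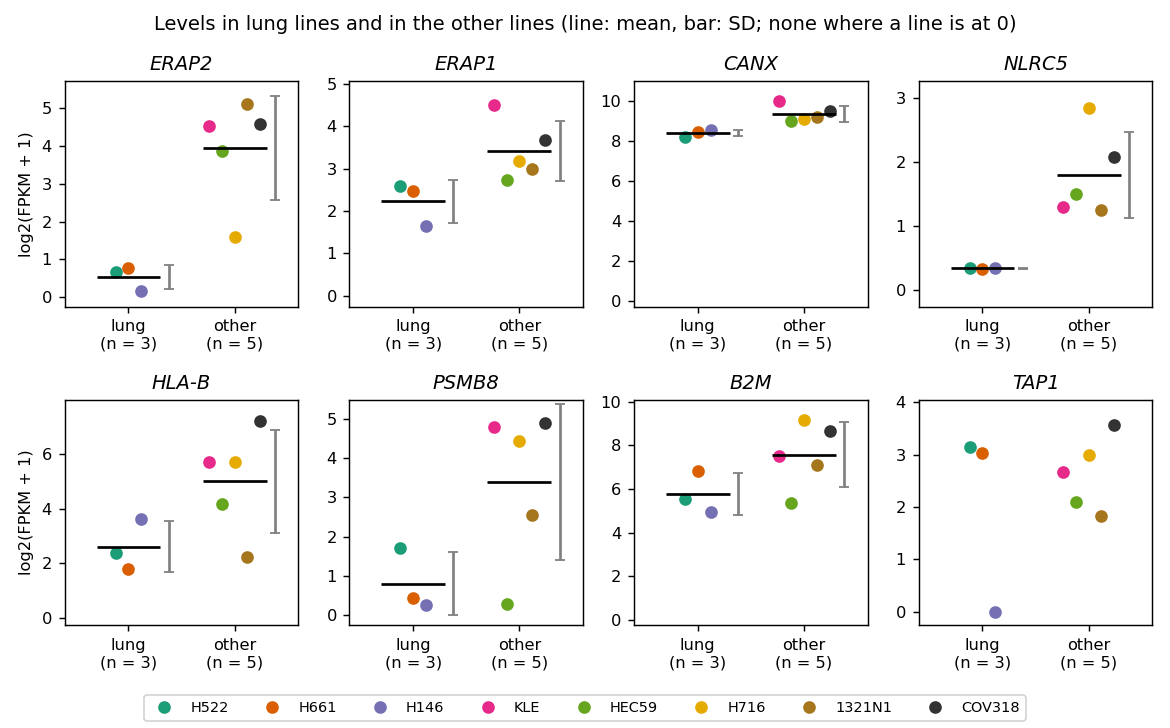
Levels of 8 genes as log2(FPKM + 1) in the 3 lung lines (left in each panel) and the other 5 lines (right), with 1 point per line, black lines at the means and grey bars for the SD. Means are left out for TAP1, which was at 0 in H146. The lung points of ERAP2, ERAP1, CANX and NLRC5 lie below all others, and those of HLA-B, PSMB8, B2M and TAP1 overlap them.

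The endometrial comparison set KLE and HEC59 against the other 6 lines, which include the lung lines, so that it shares samples with the lung comparison. No gene of the set was separated there, and KLE and HEC59 stood far apart from each other for several genes. By limma 0 of the 22 were called, where 0.00639% of all genes were (1 gene), and the smallest adjusted p was 0.954. At an unadjusted p under 0.05 stood 0 of the 22, and 4.82% of all genes. The mean was higher in endometrial lines for 15 and lower for 7 of the 22, where it was lower for 57.1% of all genes, and the median log2 difference was 0.18 against -0.11 over all genes. Upper-quartile scaling moved that median of all genes to -0.00408. Endometrial values lay below all others for 0 of the 22 and 4.53% of all genes, and above all others for 0 and 2.43%. PSMB8 shows the contrast of the pair, with 26.5 FPKM in KLE and 0.229 in HEC59, close to the highest and the lowest values of all lines. HLA-DMB went the other way, with 0.0415 in KLE and 16.4 in HEC59. Their log2 differences were 0.16 (SE 1.49, 95% interval -3.18 to 3.50) for PSMB8 and 1.63 (SE 0.862, 95% interval -0.31 to 3.57) for HLA-DMB. ERAP2 differed by 2.05 (SE 1.33, limma adjusted p 0.954). Within the set that holds KLE the differences were 2.58 for PSMB8, -0.66 for HLA-DMB and 3.52 for ERAP2, and within the set that holds HEC59 they were -2.27, 3.92 and 0.58, so PSMB8 and HLA-DMB changed sign between the sets.

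**Figure D5:**
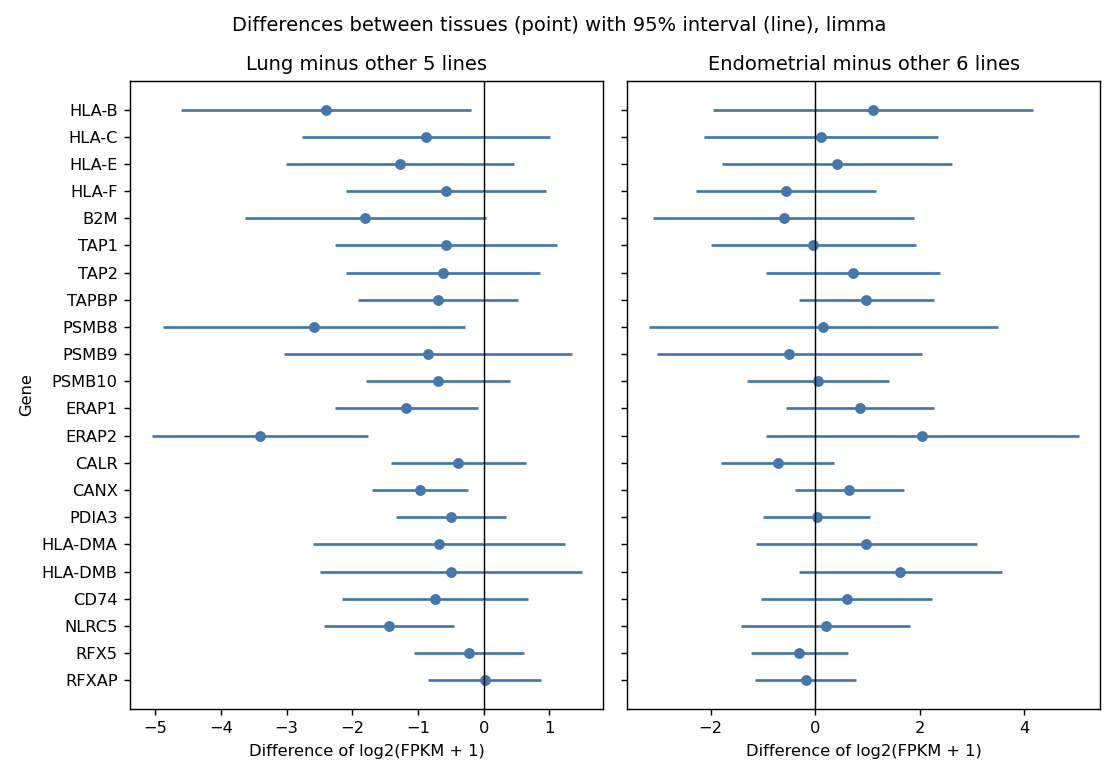
Difference of mean log2(FPKM + 1) for each of the 22 genes tested, with lung minus the other 5 lines at the left and endometrial minus the other 6 at the right (points, with 95% intervals from limma as lines). Nearly all lung points lie left of 0, ERAP2 farthest at -3.41, and all endometrial intervals cross 0.

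Further genes of the pathway were read from lists of their own, and none was called in either comparison by limma. Their counts stand beside a lower mean in lung lines for 51.6% of all genes and an unadjusted p under 0.05 for 5.94%. Of 12 interferon signalling genes tested, 10 had a lower mean in lung lines, 1 had an unadjusted p under 0.05 and the median log2 difference was -0.45. That gene was IRF9, a DNA-binding subunit of the interferon-activated factor ISGF3, at 1.04 FPKM in H522, 2.64 in H661 and 1.31 in H146, against 8.28 in KLE, 16.6 in HEC59, 3.93 in H716, 5.47 in 1321N1 and 25.6 in COV318. All lung values were below all others, with a difference of -2.05 (SE 0.592, limma adjusted p 0.588), and with -1.31 and -2.65 within the read-step sets. JAK1, a kinase of type I and type II interferon receptors, was lowest at 4.35 in H146.

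Of 6 genes for the constitutive subunits and activators, 5 had a lower mean in lung lines and 3 had an unadjusted p under 0.05, namely PSME1, PSME2 and PSME3. Over all genes the shares were 51.6% and 5.94%. PSME1, a subunit of the interferon-inducible PA28 activator, was at 27.3 FPKM in H522, 64.5 in H661 and 33.0 in H146, against 115 in KLE, 94.8 in HEC59, 95.4 in H716, 95.8 in 1321N1 and 124 in COV318. The groups did not overlap, with a difference of -1.40 (SE 0.338, limma adjusted p 0.413), and with -1.30 and -1.63 within the sets. Its partner PSME2 differed by -1.32 (SE 0.421, limma adjusted p 0.670) with overlap, and by -0.60 and -2.33 within the sets. PSME3, the nuclear activator that is not part of that pair, was at 219 FPKM in H522, 158 in H661 and 84.0 in H146, against 56.3 in KLE, 32.5 in HEC59, 109 in H716, 83.7 in 1321N1 and 75.7 in COV318, a difference of 1.09 (SE 0.461, limma adjusted p 0.821), with 1.23 and 0.499 within the sets.

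Of 6 class I accessory genes, 4 had a lower mean in lung lines and 1, LNPEP, had an unadjusted p under 0.05, against 51.6% and 5.94% of all genes. LNPEP, an aminopeptidase that trims peptides for cross-presentation in endosomes, was at 15.9 FPKM in H522, 17.6 in H661 and 4.85 in H146, against 30.0 in KLE, 20.4 in HEC59, 36.8 in H716, 60.9 in 1321N1 and 28.5 in COV318. Its lung values lay below all others, with a difference of -1.48 (SE 0.488, limma adjusted p 0.701), and with -0.95 and -2.54 within the sets. TAPBPL, a tapasin homologue that edits peptides, was at 0.236 FPKM in H522, 0.0271 in H661 and 4.72 in H146, against 3.86 in KLE, 0.245 in HEC59, 4.57 in H716, 0.238 in 1321N1 and 1.61 in COV318. It was highest in H146, where TAPBP itself was lowest.

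Of 5 class II accessory genes tested, which prepare peptides for class II, 4 had a lower mean in lung lines, as had 51.6% of all genes, with a median log2 difference of -0.53, and 0 had an unadjusted p under 0.05. IFI30, a thiol reductase that opens disulfide bonds of endocytosed proteins, was at 0.432 FPKM in KLE and at 11.7 to 35.0 in the other 7 lines. The protease genes CTSB and LGMN were at 10.3 FPKM or more and at 6.48 or more in every line, each lowest in H146. CTSL was at 0 in H146 and reached 73.1 in 1321N1. CTSS, the main invariant-chain protease of antigen-presenting cells, was at 5.27 in KLE and 1.71 in HEC59, against 0.0684 in H522, 1.13 in H661, 0.0473 in H146, 0.0735 in H716, 0.0796 in 1321N1 and 2.43 in COV318, a difference of 1.504 between endometrial and other lines (SE 0.585, limma adjusted p 0.937) and of 2.22 and 0.79 within the sets. Of the 5 genes for RFXANK, NF-Y and CREB1, which build the class II promoter complex, all passed the filter, 4 had a lower mean in lung lines and 0 had an unadjusted p under 0.05.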

How the data were processed

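RNA of 8 cell lines was sequenced, 1 library per line. Per the file headers, the authors deposited FPKM values for 58202 Ensembl identifiers with symbols. The build was GRCh37, and CASAVA 1.4, TopHat2 2.0.8 and SAMtools 1.0 are named, per the submitters' processing notes. Which program estimated FPKM, with which annotation and strand setting, was not given in the sources used here. FPKM keeps no read totals, so depth is unknown and no counting error could be set.

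For a repeated symbol the identifier with the highest mean was used. The 15650 genes that reached an FPKM of 1 in 2 or more lines were tested on log2(FPKM + 1) with limma 3.58.1 under R 4.3.3 (trended eBayes, two-sided, Benjamini-Hochberg over all genes tested, threshold 0.05). The code was first checked on simulated data with the same spread for every gene. The lines here do not have that, so the check says nothing of the power of these comparisons. Lung lines were compared with the other 5 and endometrial lines with the other 6. Lines of a tissue are different tumours, and p-values reflect only the spread among such lines. Read-step sets of lines came from ratios of low values, of which 20.2% lay at the commonest ratio within sets and 10.6% between them, a difference of 9.55 points, and the next best split gave 2.85. The labels give no batch.

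The members and lists were chosen with earlier results of these data known. All 31 members are accounted for, and of each further list the text names at most 5 genes, those with the widest range over lines. Marker genes named in the check of the labels and in the account of the 0 values were chosen after their values were seen. Promoter windows are from the RefSeq table on GRCh38.p14, cut to 250 bases before the start, aligned with Biopython 1.88, and no coordinate of it was combined with GRCh37. Alternatives were the pseudocount, the filter, scaling, the variance trend, a term for the read-step set and each line left out. Some genes of the lists are not reported here.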

Additional observations from a re-analysis of the deposited data

Results flagged for a closer look

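With the 8 lines taken as 1 group, 7 of the 26 genes that reached an FPKM of 1 in some line had a line standing apart, judged by the gap to its nearest neighbour as a share of the whole range on the log2(FPKM + 1) scale. Chance would flag about 1 in 20 groups of normally distributed values, a rate that does not hold for genes at 0 in many lines. HLA-DRB1, HLA-DPB1 and HLA-DOA entered only through the 1 line that stood apart. The lines are also of different tissues. The share flagged over all genes was not computed, so the count is a description and no excess is read from it. H146 was lowest for HLA-E, with a gap of 0.593 of the range, and for TAP2, with 0.563. H716 was highest for PDIA3, with 0.534. H522 was highest for HLA-DRB1, with a gap of 1 because all other lines were at 0, and for HLA-DOA, with 0.839. HEC59 was highest for HLA-DMB, with 0.749, and 1321N1 for HLA-DPB1, with 0.679.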

How the results depend on the processing

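No paired analysis was possible because replicate numbers were given in accession order and pair nothing. By limma, 0 of the 22 genes tested were called in lung lines under every alternative but 1. The exception was the fit without H716, which called 1 (range 0 to 1 with each line left out). That gene, ERAP2, passed the filter on low values through the other lines alone. Over all genes the lung comparison called 4, against 11 with a pseudocount of 0.1, 2 with a pseudocount of 5, 1 with no filter and 2 with a term for the read-step set, and 1 to 16 with a line left out (8 without H661, 13 without H716, 16 without H146, 2 without 1321N1, 2 without HEC59 and 1 without COV318). The endometrial comparison called 1, against 4 with a pseudocount of 5, 20 with no filter and 1 to 30 with a line left out (30 without COV318, 5 without H146, 4 without KLE and 2 without HEC59), and called 0 of the 22 genes throughout. Without KLE or HEC59 the lone endometrial line is assumed to vary like the others. Class II genes detected in some line numbered 7 at an FPKM of 1 and 2 at an FPKM of 5.

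The sign of the log2 difference was kept under all alternatives by 18 of 22 genes in the lung comparison and 12 of 22 in the endometrial one. In the lung comparison RFXAP turned to -0.034 with that term, and with each line left out it ranged from -0.23 to 0.25, TAP1 from -1.12 to 0.45, TAP2 from -1.23 to 0.24 and PSMB9 from -1.36 to 0.12. In the endometrial comparison TAP1 turned to 0.41 with a pseudocount of 0.1, 0.10 with upper-quartile scaling and 0.017 with quantile normalization, and PSMB8 to -0.084 with a pseudocount of 0.1. With each line left out the endometrial difference ranged from -0.53 to 0.74 for HLA-C, -0.24 to 1.07 for HLA-E, -0.52 to 0.24 for TAP1, -0.11 to 0.25 for PDIA3, -2.09 to 2.40 for PSMB8, -0.30 to 0.41 for PSMB10, -0.028 to 1.75 for ERAP1, -1.68 to 0.47 for B2M, -1.68 to 0.69 for PSMB9 and -0.62 to 2.57 for HLA-DMA. The causes were not tested. A group of 2 or 3 different tumours, 1 library each and unknown depth limit all comparisons, and levels near an FPKM of 0 cannot be told from absence.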

Other observations

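MICA and MICB are ligands of NKG2D, a receptor that natural killer cells read beside class I. MICA was at 2.52 FPKM in H522, 32.2 in H661 and 0 in H146, against 5.5995 in KLE, 6.19 in HEC59, 0.177 in H716, 6.44 in 1321N1 and 15.2 in COV318. MICB was at 12.1 FPKM in H522, 33.7 in H661 and 0.107 in H146, against 4.05 in KLE, 7.32 in HEC59, 0.733 in H716, 4.55 in 1321N1 and 10.7 in COV318. H661, with the lowest HLA-B, had the most of both, and H146 had the least. H716 had little of either beside the most B2M. The other NKG2D ligand genes tested had other orders of lines. ULBP1 was at 1.95 FPKM in H522, 8.14 in H661 and 3.46 in H146, against 5.44 in KLE, 0.0372 in HEC59, 0.308 in H716, 8.22 in 1321N1 and 0.432 in COV318. ULBP2 was at 0 FPKM in H522, 1.64 in H661 and 4.18 in H146, against 2.59 in KLE, 0.660 in HEC59, 0.720 in H716, 5.47 in 1321N1 and 1.09 in COV318. ULBP3 was at 0.704 FPKM in H522, 2.63 in H661 and 2.99 in H146, against 2.53 in KLE, 1.70 in HEC59, 0.945 in H716, 0 in 1321N1 and 2.39 in COV318. H146 was highest for ULBP3 and second to 1321N1 for ULBP2. Of these 5 genes, 3 had a higher mean in lung lines, where 51.6% of all genes had a lower one, and 0 were called by limma, with 0 at an unadjusted p under 0.05 and a median log2 difference of 0.35.

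Of 5 NF-kB subunit genes, 4 had a lower mean in lung lines, as had 51.6% of all genes, with a median log2 difference of -0.08 and 0 at an unadjusted p under 0.05. The PRC2 complex silences class I and class II genes in some tumours. Of its 3 genes, 2 had a higher mean in lung lines, where 51.6% of all genes had a lower one. Their median log2 difference was 0.17, with 0 at an unadjusted p under 0.05, against 5.94% of all genes. In the endometrial comparison 2 of the 3 lay below all other lines, as did 4.53% of all genes. At an unadjusted p under 0.05 stood 1 of the 3, and 4.82% of all genes. EZH2, the catalytic subunit, was at 12.1 FPKM in KLE and 20.2 in HEC59. The lung lines had 51.0 in H522, 33.7 in H661 and 21.6 in H146. H716 had 31.8, 1321N1 42.8 and COV318 43.6. Its log2 difference was -1.15 with an SE of 0.403 (limma, adjusted p 0.857), and -1.57 and -0.74 within the read-step sets. EED differed by -0.60 and SUZ12 by 0.14. A link to the class I and class II levels was not tested.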
